A study of Mus musculus with 26 samples.

Results

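The response of the mouse fibroblast line WA to human c-myc was measured on 6 of the 26 expression arrays of the series: 3 of cells infected with the pBabe retroviral vector carrying human c-myc and 3 of cells infected with the empty pBabe-puro vector. These arrays were chosen by their titles and by the labels for parental line and vector, and all genes measured on them are described. The free-text description of all 26 samples speaks of early embryos instead, which does not match these labels, and it was not used. WA is one of 3 immortalized mouse embryonic fibroblast lines, that is, fibroblasts grown from embryos and passed into permanent culture. The other lines, WB and WC, received the same vectors, again with 3 arrays a group, and a further vector carried the kinase oncogene v-src. The study used c-myc and v-src cells as a test set for an expression signature of growth without anchorage. Mouse strain, embryo age, the way the lines were immortalized and whether infected cells were pools or single clones are not given in the sources used here, and the control cells of all groups carry the retroviral backbone too.

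Myc is a transcription factor that binds DNA as a dimer with Max, at E-box sequences of which CACGTG is the preferred form, and competes there with dimers of Max and the Mxd, Mnt and Mga proteins. It is known for raising the genes of ribosome production, nucleotide synthesis, DNA replication and mitochondria, and for lowering genes of cell adhesion and extracellular matrix in cultured fibroblasts. Cells with much introduced Myc often lower their own Myc gene.

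Values are MAS5 signals, the linear brightness summary of a probe set, with a trimmed mean of 500 on every array. Differences are given as log2(signal + 23) in c-myc cells minus that in empty vector cells. The added 23 shrinks the change of dim genes. Array medians in WA lay between 89.0 and 124, and the lowest was empty vector replicate 3, which also had the lowest correlations with its group (0.968 with both others). Across the 13018 genes tested, r was 0.968 to 0.981 within the WA groups and 0.920 to 0.943 between them, with genes not independent replicates. The ratio of the 3' to the 5' control probe set, a sign of RNA integrity, was 0.776 to 0.798 for Gapdh and 1.08 to 1.19 for actin in the 6 arrays. The summed signal of 16 fibroblast markers was 118960 to 198339 per array, against 612 to 976 for 5 endothelial, 892 to 1781 for 8 macrophage and blood, 1262 to 2891 for 8 epithelial, 535 to 1408 for 4 skeletal muscle, 1150 to 2096 for 8 adipocyte and cartilage and 2286 to 4017 for 8 neural and glial markers. Ptprc, Pecam1, Cdh1, Myog and Adipoq, which define blood, endothelial, epithelial, muscle and fat cells, were too dim to be tested.

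c-myc changed the level of 4889 of 13018 genes in WA (37.6%, limma with Benjamini-Hochberg adjustment, adjusted p below 0.05). Of these, 2478 rose (19.0% of the genes tested) and 2411 fell (18.5%), and 5870 had an unadjusted p below 0.05. The sizes were uneven: 296 genes rose at least 2-fold (2.27%) and 625 fell at least 2-fold (4.80%), while 11 rose and 128 fell at least 4-fold. All 3 c-myc arrays lay above all 3 empty vector arrays for 3180 genes (24.4%) and below them for 2864 (22.0%), and 4612 of the 4889 called genes were among these. The median difference over all genes was 0.06. All arrays have the same trimmed mean, so rises and falls are relative to it. With the medians of the arrays made equal instead, 2663 genes rose and 2269 fell. With the added constant raised from 23 to 74, the genes up at least 2-fold numbered 162.

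**Figure D1:**
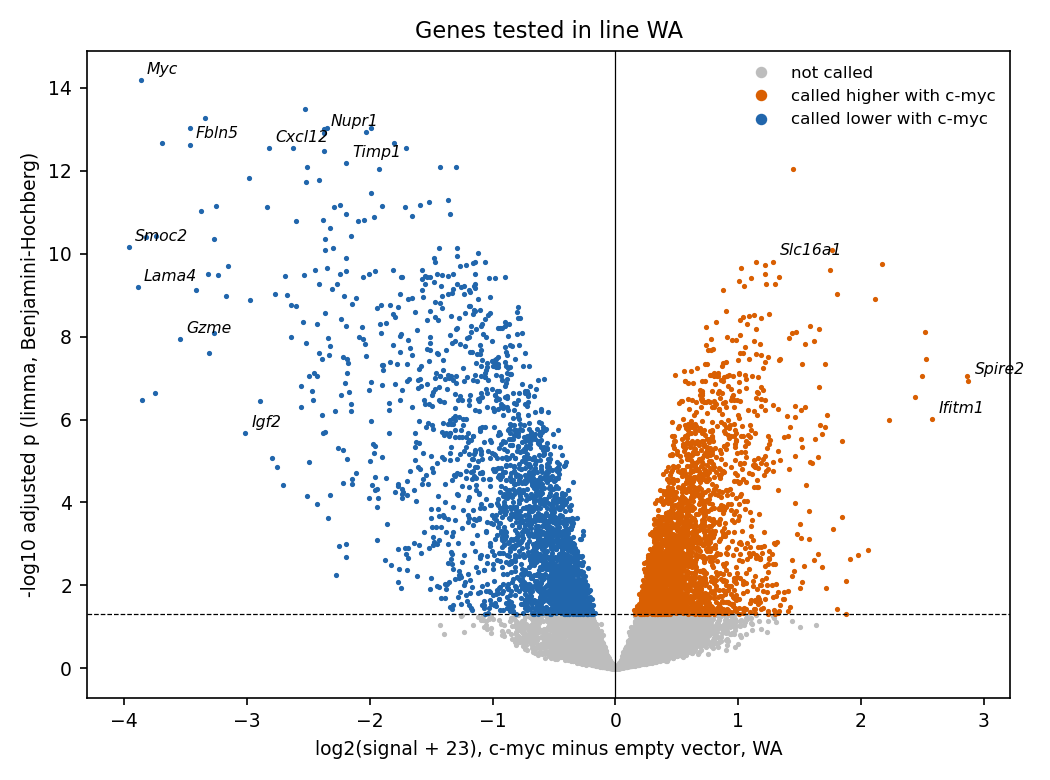
Each point is 1 of 13018 genes in WA. The x axis is the difference in log2(signal + 23), c-myc minus empty vector, and the y axis is -log10 of the limma adjusted p, with the dashed line at 0.05. The falls on the left reach -3.96 (Smoc2) and the rises on the right 2.88 (Spire2).

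The cells' own Myc fell further than all but 2 of the genes tested. Its signal was 3060, 2910 and 3602 in the empty vector arrays and 159, 268 and 176 in the c-myc arrays. Every c-myc array was far below every control, and the change was -3.87 (SE 0.14, 14.6-fold lower, limma adjusted p = 6.61e-15). The value comes from 1 mouse probe set, and whether it detects the human transcript of the vector was not tested. The fall was larger than in WB (-1.46, adjusted p of the difference = 2.86e-08) and in WC (-2.66, adjusted p = 0.000504).

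Among the other 14 tested genes of the network, 5 rose, 0 fell and 9 were not called, where 19.0% of all genes rose and 18.5% fell. Mxi1, which encodes a partner of Max that opposes Myc, had signals of 1122, 1124 and 730 with empty vector and of 2792, 2131 and 2527 with c-myc. It rose 2.50-fold (1.32, SE 0.16, adjusted p = 5.64e-07), without overlap, and its second probe set changed by 1.13. Smaller rises were those of Bin1, a protein that binds Myc (0.52, SE 0.12), of Mlxip, a glucose-responsive factor of the same helix-loop-helix family (0.48, SE 0.12), of Fbxw7, part of the ubiquitin ligase that degrades Myc (0.41, SE 0.16), and of Mnt (0.36, SE 0.13). The call of Bin1 was lost when probe sets were averaged, since its 2 others changed by 0.04 and 0.28, and those of Fbxw7 and Mnt were lost without single WA arrays. Max itself, at 504, 656 and 299 against 773, 720 and 604, was not called (0.56, SE 0.26, adjusted p = 0.0974). Mycn (-0.30, adjusted p = 0.0632) and Mycl (-0.51, adjusted p = 0.0869) were not called either.

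The 15 largest falls were taken among called genes whose groups do not overlap, so lack of overlap was a condition for them. They ranged from -3.96 (Smoc2) to -3.32 (Lce1h), Myc among them. Smoc2, a matricellular calcium-binding protein, had signals of 1707, 1828 and 1568 with empty vector and of 106, 77.2 and 80.7 with c-myc. It fell 15.6-fold (-3.96, SE 0.27, adjusted p = 6.91e-11). Lama4, a laminin chain of basement membranes, was at 535, 772 and 628 in control arrays and at 22.3, 16.4 and 26.7 in c-myc arrays, where it lies near the dim end of the scale. Its change was -3.89 (SE 0.30, adjusted p = 6.31e-10), and a second probe set gave -2.21. The groups were far apart for both genes.

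Tll1 (-3.82, SE 0.25), a protease that trims procollagen, and Pappa (-3.74, SE 0.25), which cleaves an IGF binding protein, fell by similar amounts. Pappa went from 2922, 2813 and 4422 to 190, 259.6 and 234, with -3.51 and -1.46 on its other probe sets. Sulf1, which removes sulfate from heparan sulfate, went from 1654, 1375 and 1829 to 114, 112 and 86.2 (-3.69, SE 0.18, adjusted p = 2.15e-13). Fbln5, which helps to assemble elastic fibres, started from a high level. Its signals were 4820, 4369 and 6761 in control arrays and 479, 446 and 432 in c-myc arrays, an 11.1-fold fall (adjusted p = 2.38e-13), with -0.91 on a second probe set. Papss2, the enzyme that makes the sulfate donor, fell as well (-3.37), with -1.75, -2.37 and -0.42 on its other probe sets. So did Galnt18, a mucin-type glycosyltransferase (-3.46), Fam20a, a secreted pseudokinase (-3.75), and Ntn4, a netrin of basement membranes (-3.42). Gzme, a granzyme gene, fell from signals of 465, 240 and 608 (-3.55), and Lce1h, a cornified envelope gene, fell too (-3.32).

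The largest rises were smaller than the largest falls. Spire2, an actin nucleator, had signals of 91.9, 78.3 and 108 with empty vector and of 877, 823 and 769 with c-myc, a 7.34-fold rise (2.88, SE 0.31, adjusted p = 1.15e-07). Reep6, a membrane protein of the endoplasmic reticulum, was at 23.2, 81.1 and 19.5 against 371, 397 and 453 (2.86, SE 0.31). Ifitm1, an interferon-inducible membrane protein, was at 420.3, 171 and 174 against 1564, 1556 and 1426 (2.58, SE 0.33, adjusted p = 9.91e-07). In each of these genes the dimmest c-myc array was well above the brightest control array, but the largest rises were picked for lack of overlap.

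Slc6a15, a transporter of neutral amino acids, rose from 283, 285 and 197 to 1670, 1443 and 1480 (2.50, SE 0.27, adjusted p = 9.07e-08). Epop, a partner of Polycomb repressive complex 2, rose by 2.53 (SE 0.25) and Bex1, a small adaptor protein, by 2.52 (SE 0.23). Them6 (2.44), Dcaf4 (2.23), a substrate receptor of a ubiquitin ligase, Dtd1 (2.17), which removes D-amino acids from tRNA, and Abcc4 (2.11), an efflux pump, followed. A second, dimmer probe set of Dtd1 changed by 0.61. Rsph6a (2.06), Fam184a (1.98), Kcnj16 (1.91) and Prorp (1.88) had control signals of at most 215, and other probe sets of Fam184a (0.18 and 0.01) and Kcnj16 (0.03) hardly moved. E2f5 also rose by 1.88, from 339, 227 and 1261 to 2356, 1304 and 1821, but this call (SE 0.74, adjusted p = 0.0499) was lost in 10 of 17 alternative settings, and its 2 other probe sets each changed by -0.04.

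**Figure D2:**
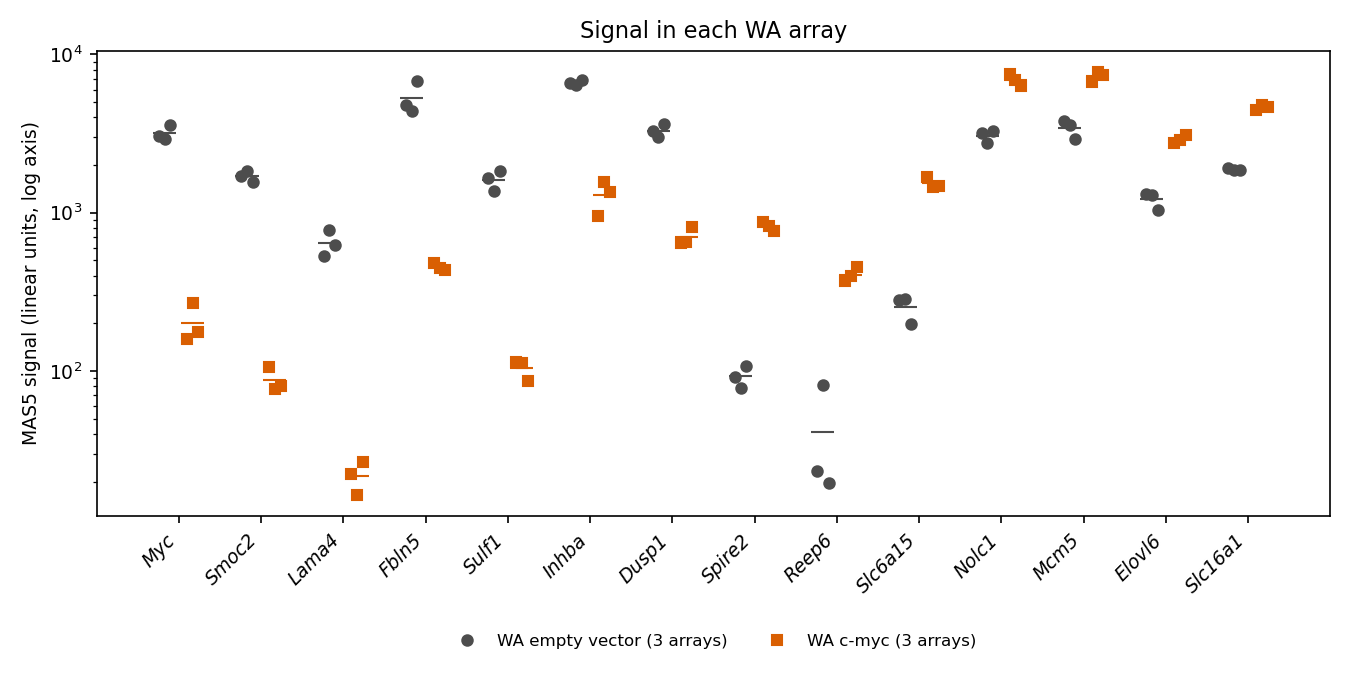
MAS5 signal on a log axis for 14 genes in each of the 6 WA arrays, circles for empty vector and squares for c-myc, with a bar at each group's mean. The groups do not overlap for any of these genes, and Myc goes from 2910 or more to 268 or less.

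Counts of rises and falls in the gene lists below stand beside shares of 19.0% and 18.5% over all genes tested. Genes of ribosome production rose together. Of 40 tested genes of ribosome biogenesis and RNA polymerase I, 35 rose and 0 fell, with a median of 0.61 and a range of 0.07 to 1.16. Nolc1, a nucleolar phosphoprotein that shuttles assembly factors, had signals of 3178, 2770 and 3262 with empty vector and of 7535, 6850 and 6299 with c-myc. It rose 2.24-fold (1.16, SE 0.13, adjusted p = 2.30e-07), and its other probe sets gave 1.25 and 1.20. Gar1, of the small nucleolar particles that modify ribosomal RNA, rose by 1.00 (SE 0.11), Nob1, a nuclease of small subunit maturation, by 0.99 (SE 0.14), and Polr1c, shared by RNA polymerases I and III, by 0.95 (SE 0.16). The list's medians in WB and WC were 0.50 and 0.92, and 0 of its members had a WA effect called different from the mean of the other lines. Against single lines, in contrasts added after the data were seen, 6 members were below WC and 0 above (4.22% and 3.47% of all genes), and 1 was below WB and 1 above (5.88% and 4.77%).

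Promoter sequences of this list are shown because the preferred E-box is the known contact of Myc and Max. Promoters came from a RefSeq table for mouse build GRCm38.p6 that spans 250 bases before to 50 after each start site, and CACGTG, which reads the same on both strands, was searched as exact letters. It occurred in 8 of the 31 promoters found for members that rose (25.8%) and in 9 of 35 for all tested members (25.7%). Over all genes tested the count was 1175 of 10452 (11.2%). The motif was found in 292 of 2059 for all genes that rose (14.2%), in 210 of 1904 for genes that fell (11.0%) and in 673 of 6489 for genes not called (10.4%). The whole table, with 32851 promoters for 27025 genes, held it in 2349 (7.15%). Unlike the other sets it counts more promoters than genes, so its share may not compare directly with theirs. Among genes up at least 2-fold it occurred in 27 of 244 (11.1%). The 4 windows below run from 100 bases before the start site through the first 25 transcribed bases, 5′ to 3′ on the plus strand, with the match in capitals, for the members that rose most among those with a match inside the window.
Pes1: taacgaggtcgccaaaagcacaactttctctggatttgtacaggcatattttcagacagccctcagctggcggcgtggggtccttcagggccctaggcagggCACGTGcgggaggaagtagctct
Utp4: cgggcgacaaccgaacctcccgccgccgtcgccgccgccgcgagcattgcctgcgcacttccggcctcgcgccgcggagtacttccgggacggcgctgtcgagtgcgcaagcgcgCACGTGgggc
Wdr43: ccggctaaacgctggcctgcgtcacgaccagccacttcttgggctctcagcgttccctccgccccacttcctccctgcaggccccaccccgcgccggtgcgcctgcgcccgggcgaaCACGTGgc
Nop2: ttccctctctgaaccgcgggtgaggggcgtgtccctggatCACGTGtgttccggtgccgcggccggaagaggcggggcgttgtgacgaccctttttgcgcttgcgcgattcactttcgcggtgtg
The window of Pes1 is chr11:3963875-3963999, that of Utp4 chr8:106893540-106893664, that of Wdr43 chr17:71616115-71616239 and that of Nop2 chr6:125131783-125131907. A letter match is a description and does not show binding.

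Pes1, which with Bop1 and Wdr12 processes the large subunit RNA, had signals of 1220, 1156 and 1404 with empty vector and of 2307, 2305 and 2280 with c-myc (0.86, SE 0.09, adjusted p = 1.10e-07). Utp4, of the small subunit processome, was at 2571, 2706 and 2907 against 4779, 4711 and 4611 (0.78, SE 0.08). Wdr43, of the same processome, was at 3139, 3020 and 3214 against 4914, 5010 and 4584 (0.63, SE 0.08). The c-myc arrays of all 3 genes lay within a narrow band above their controls. Nop2, a methyltransferase of the large subunit RNA, was at 2034, 1693 and 1560 against 2437, 2745 and 2526 (0.55, SE 0.12, adjusted p = 0.000604), also without overlap.

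Cytosolic ribosomal protein genes gave 4 rises and 0 falls among 20, with a median of 0.12, so the share that rose was near that of all genes (19.0%). Among them Rpl14, from 605, 628 and 658 to 1098, 1295 and 1142, had the largest change (0.88, SE 0.10). Of 24 translation factors and regulators 13 rose and 1 fell (median 0.23). Pdcd4, an inhibitor of the helicase eIF4A, rose by 1.47 (SE 0.13, 2.77-fold), and Eif4ebp2, which blocks cap binding, by 0.89 (SE 0.10), while the related Eif4ebp1 fell by 0.37 (SE 0.10). The aminoacyl-tRNA synthetases, which load tRNAs, were split into 4 rises and 7 falls among 19: Kars (0.56) and Vars (0.55) rose and Aars (-0.62) and Nars (-0.53) fell. Of 15 chaperonin and mitochondrial chaperone genes 11 rose and 0 fell (median 0.35), led by Trap1, a mitochondrial Hsp90, from 1613, 1491 and 1438 to 2957, 2770 and 2670 (0.88, SE 0.07, adjusted p = 7.36e-10).

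Mitochondrial genes rose broadly and by small amounts. Of 28 genes of the mitochondrial ribosome and protein import, 22 rose and 0 fell (median 0.42), and of 28 genes of the respiratory chain and ATP synthase the counts were again 22 and 0 (median 0.31, highest 0.63). Tfam, which packages and transcribes mitochondrial DNA, went from 1181, 1202 and 1016 to 1892, 2114 and 1965 (0.80, SE 0.09, adjusted p = 7.62e-08). Mrps5, a small subunit protein, rose by 0.96 (SE 0.10), although its 4 other probe sets gave 0.02 to 1.10. Sdhd, of complex II, rose by 0.63 (SE 0.14) and Ndufs1, of complex I, by 0.62 (SE 0.11).

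Of 32 genes of DNA replication and licensing, 27 rose and 0 fell (median 0.60). Mcm5, a subunit of the replicative helicase, had signals of 3804, 3568 and 2910 with empty vector and of 6676, 7757 and 7422 with c-myc (1.09, SE 0.09, 2.13-fold, adjusted p = 3.28e-09). The clamp loader genes Rfc3 (1.06, SE 0.15) and Rfc5 (1.02, SE 0.15) and the licensing factor Cdt1 (1.01, SE 0.08) rose by like amounts. Nucleotide, one-carbon and serine synthesis gave 17 rises and 1 fall among 29 (median 0.43). Mthfd1, which interconverts folates, went from 1364, 1433 and 1937 to 3892, 3480 and 3037 (1.14, SE 0.15). Gart (1.01, SE 0.09), of purine synthesis, Dut (1.01, SE 0.11), which keeps uracil out of DNA, and Dhodh (0.99, SE 0.14), of pyrimidine synthesis, rose, and Psph, the last enzyme of serine synthesis, fell by 0.50. Of 10 polyamine and proline genes 3 rose and 3 fell, where 19.0% and 18.5% of all genes did. Odc1, the rate-limiting enzyme of polyamine synthesis and a classical Myc target, rose 1.46-fold (0.55, SE 0.09).

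Mitotic genes gave 16 rises and 0 falls among 29, with a median of 0.31. Bub1b, a spindle checkpoint kinase, went from 1758, 1728 and 1358 to 2698, 2667 and 2997 (0.79, SE 0.11, adjusted p = 2.60e-06). Kif11, the spindle motor, rose by 0.64 (SE 0.13) and Espl1, the separase, by 0.60 (SE 0.15). Empty vector replicate 3 was the lowest array for all 3 genes.

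Cell cycle regulators were divided. Of 26 cyclin, kinase, E2F and pocket protein genes 11 rose and 4 fell. Ccnd1, the cyclin D1 gene that growth factors induce, had signals of 4826, 4575 and 3136 with empty vector and of 2139, 2040 and 1762 with c-myc (-1.05, SE 0.13, adjusted p = 5.02e-07), and Ccnd2 fell by 0.46. Skp2, which targets p27 for destruction, rose by 0.74 (SE 0.09), Ccne1 by 0.58 (SE 0.16) and Cdc25a by 0.57 (SE 0.11). Of 22 Cdk inhibitor and p53 target genes 3 rose and 8 fell. Pmaip1, the pro-death protein Noxa, fell from 459.5, 397 and 911 to 117, 83.7 and 93.0 (-2.26, SE 0.32, adjusted p = 4.85e-06). Cdkn2b, the p15 inhibitor, fell by 1.52 (SE 0.18), Phlda3 by 1.35 (SE 0.08) and Gadd45a by 1.13 (SE 0.18), and Ndrg2, a gene known to be lowered by Myc in other cells, rose by 1.66 (SE 0.15). In the Bcl2 family 2 rose and 3 fell among 14, near the shares over all genes (19.0% and 18.5%). Bmf (1.48, SE 0.31) and Bbc3 (0.58, SE 0.15), which promote death, rose, and Bcl2 (-1.17, SE 0.19) and Bcl2l2 (-0.92, SE 0.10), which oppose it, fell with Pmaip1.

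Genes of sterol and fatty acid synthesis rose nearly as a block: 18 of 21 rose and 0 fell, with a median of 0.71. Elovl6, which lengthens fatty acids, went from 1314, 1297 and 1042 to 2772, 2896 and 3101 (1.25, SE 0.11, 2.38-fold, adjusted p = 2.94e-09). Idi1, of isoprenoid synthesis, went from 2325, 2129 and 2642 to 5745, 5896 and 4999 (1.22, SE 0.09, adjusted p = 5.40e-10). Dhcr7, the last step to cholesterol, was at 551, 549.9 and 543 against 1128, 1401 and 1308 (1.18, SE 0.10). The 3 genes had no overlap between groups, and Mvd, of the mevalonate pathway, rose by 1.14 (SE 0.13). The list's regulators Srebf1 (-0.02) and Srebf2 (-0.01), chosen for mention after their values were seen, were not called.

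In WC the list's median was -0.12 with 2 rises and 5 falls, and in WB it was 0.48 with 16 rises and 0 falls. Against the mean of both lines, 14 of 21 members were above in WA and 0 below, where 4.14% of all genes were called above. Against single lines 16 members were above WC (3.47% of all genes) and 2 above WB (4.77%). The gap was largest for Mvd against WC (1.47, adjusted p = 2.01e-05), and for Dhcr7 it was called against both WB (0.83, adjusted p = 0.000454) and WC (0.79, adjusted p = 0.00118).

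**Figure D3:**
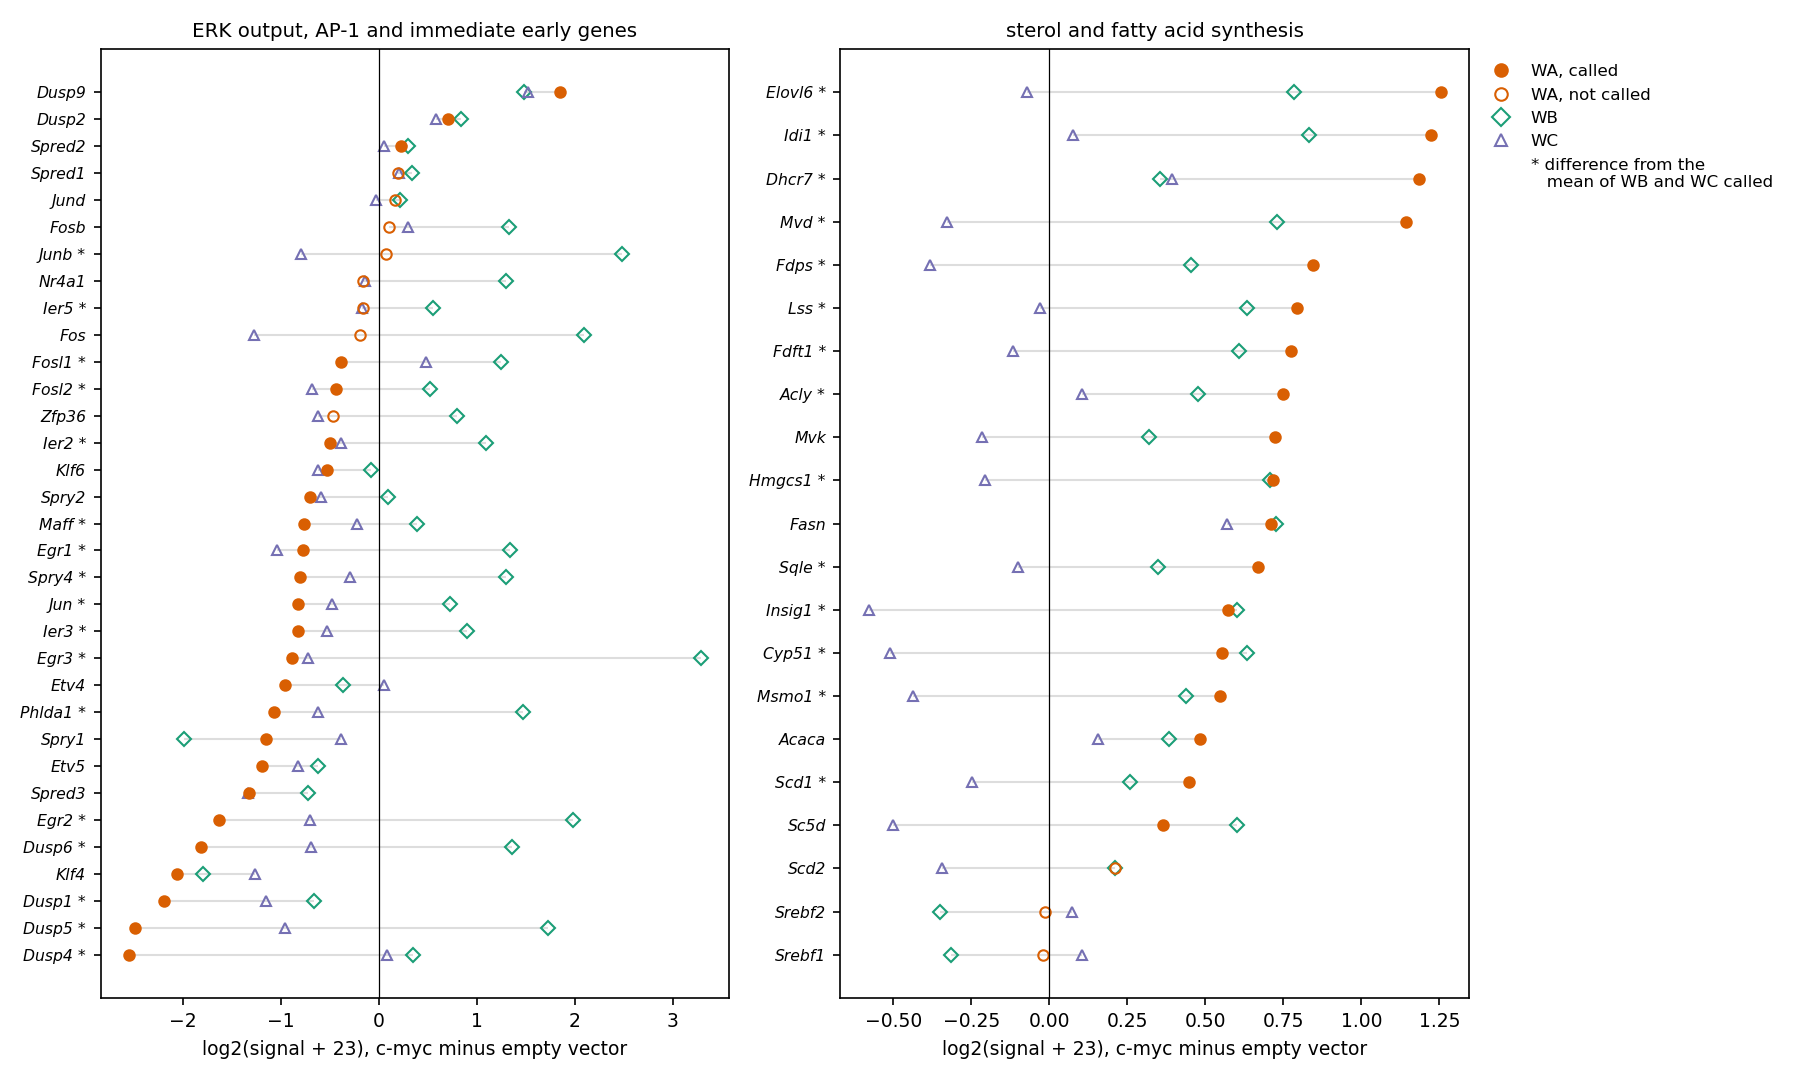
Difference in log2(signal + 23), c-myc minus empty vector, for each tested member of the lists ERK output, AP-1 and immediate early genes (left, 33 genes) and sterol and fatty acid synthesis (right, 21 genes), in WA (circles, filled where called), WB (diamonds) and WC (triangles). An asterisk marks the 17 members on the left and the 14 on the right whose WA effect differed from the mean of WB and WC.

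Of 20 glycolysis and lactate genes 8 rose and 2 fell (median 0.24). Slc16a1, the lactate carrier MCT1, went from 1922, 1862 and 1867 to 4440, 4818 and 4631 (1.29, SE 0.09, adjusted p = 1.56e-10), with -0.07 on a very dim second probe set. Pdk1, a kinase of pyruvate dehydrogenase, went from 433, 453 and 382 to 1299, 1251 and 1206 (1.52, SE 0.21). Its effect was above those of WB (adjusted p = 0.0223) and WC (adjusted p = 0.000275). Slc2a1, the glucose carrier, fell by 0.31, a call lost without empty vector replicate 3 or c-myc replicate 3. Antioxidant genes gave 9 rises and 4 falls among 22. Gstm1, a glutathione transferase, rose 3.26-fold (1.71) from 819, 739 and 648 to 2502, 2336 and 2483. Its other probe sets gave 0.59, 1.09 and 1.39. Gclm, of glutathione synthesis, rose by 0.82, and the oxidase Nox4 (-1.29, SE 0.22) and Gpx8 (-1.29, SE 0.12) fell.

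Genes of the integrated stress response fell. Of 22 tested, 16 fell and 2 rose, with a median of -0.71. Nupr1, a stress-induced chromatin protein, had signals of 1306, 1241 and 1415 with empty vector and of 210, 208 and 301 with c-myc (-2.37, SE 0.11, 5.17-fold, adjusted p = 1.22e-13). Trib3, a pseudokinase induced by the pathway, went from 1412, 1339 and 2551 to 290.5, 239 and 384 (-2.41, SE 0.24). Atf5, a transcription factor of the response, went from 5170, 5715 and 6603 to 1259, 1135 and 1360 (-2.20, SE 0.13, adjusted p = 1.09e-11), and Ddit3, the factor CHOP, fell by 2.22 (SE 0.36).

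The gene of the pathway's central factor Atf4, chosen for mention after its value was seen, was not called (-0.06, SE 0.09). The exceptions were Ddit4, an inhibitor of mTORC1, which rose from 1184, 1438 and 1754 to 3002, 3278 and 3153 (1.11, SE 0.12), and Stc2, a secreted glycoprotein (0.66, SE 0.18). The list's medians were -0.79 in WB and -0.07 in WC, and against single lines 5 members were above WB and 3 below (4.77% and 5.88% of all genes), and 1 was above WC and 6 below (3.47% and 4.22%). Of 20 chaperone and unfolded protein response genes of the endoplasmic reticulum, 10 fell and 1 rose (median -0.31). Xbp1, a factor of that response, went from 5385, 5355 and 6823 to 2004, 2279 and 2174 (-1.43, SE 0.15), and Dnajb9 fell by 1.22 (SE 0.10).

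Many matrix genes fell. The summed signal of the fibroblast markers was also lower with c-myc, at 118960 to 134962 against 157612 to 198339. Of these markers 11 of 16 fell and 0 rose, and fewer cells of a type and less RNA per cell cannot be told apart in such samples. The sums of endothelial (612 to 681 against 833 to 976), skeletal muscle (535 to 757 against 972 to 1408) and neural (2286 to 2629 against 3811 to 4017) markers were lower too, while those of the macrophage, epithelial and adipocyte markers overlapped. Of the muscle markers only Acta1 was called (mean signal 707 and 85.0), of the endothelial ones only Flt1 (471 and 204), and the medians of both lists were -0.01. The part of these shifts in the results was not tested. Thy1, a fibroblast surface marker, went from 16317, 16573 and 19825 to 4582, 4841 and 4627 (-1.90, SE 0.11). Pdgfra, the PDGF receptor alpha, went from 821, 985 and 934 to 102, 128 and 199 (-2.53, SE 0.19), with -0.89 and -0.14 on its other probe sets.

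Of 23 collagen chains 18 fell and 0 rose (median -0.60). Col8a1, a short-chain collagen, went from 8572, 7910 and 11307 to 1308, 1593 and 1868 (-2.52, SE 0.14, 5.75-fold, adjusted p = 1.93e-12), and Col11a1, a fibrillar chain, from 3992, 3092 and 7113 to 707, 901 and 818 (-2.43, SE 0.44). The enzymes that process and crosslink collagen gave 16 falls and 1 rise among 19. Loxl3 (-2.42, SE 0.13) and Lox (-1.51, SE 0.13), both lysyl oxidases, fell, and P3h2, a prolyl hydroxylase, rose from 367, 266 and 189 to 756, 755 and 738 (1.42, SE 0.18). Of 10 small leucine-rich proteoglycans 3 fell, 1 rose and 6 were not called, where 18.5% of all genes fell and 19.0% rose. Dcn, decorin, fell by 1.86 (SE 0.37), and its second probe set changed by -0.11.

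Elastic fibre, laminin and basement membrane genes gave 11 falls and 2 rises among 22 (median -0.69). Fbln2 went from 14662, 14064 and 17733 to 1787, 2328 and 2352 (-2.84, SE 0.17), and Lama2, a laminin chain of muscle and nerve, fell by 3.27 (SE 0.22). The rises were of Efemp1, a fibulin, from 1490, 1490 and 594 to 2433, 2481 and 2553 (1.16, SE 0.27, adjusted p = 0.00120), and of the fibrillin Fbn2 (0.97, SE 0.28). The matricellular list had the lowest median of all lists, -1.20, with 21 falls and 2 rises among 24. Ccn2, a growth regulator of connective tissue, went from 18751, 17639 and 24723 to 3353, 3417 and 2885 (-2.64, SE 0.22, 6.24-fold, adjusted p = 1.74e-09), and Thbs2, a thrombospondin, fell by 2.98 (SE 0.24). Tgfbi, an adhesion protein of the matrix, moved the other way, from 1557, 1371 and 1050 to 4047, 3579 and 4059 (1.55, SE 0.26).

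**Figure D4:**
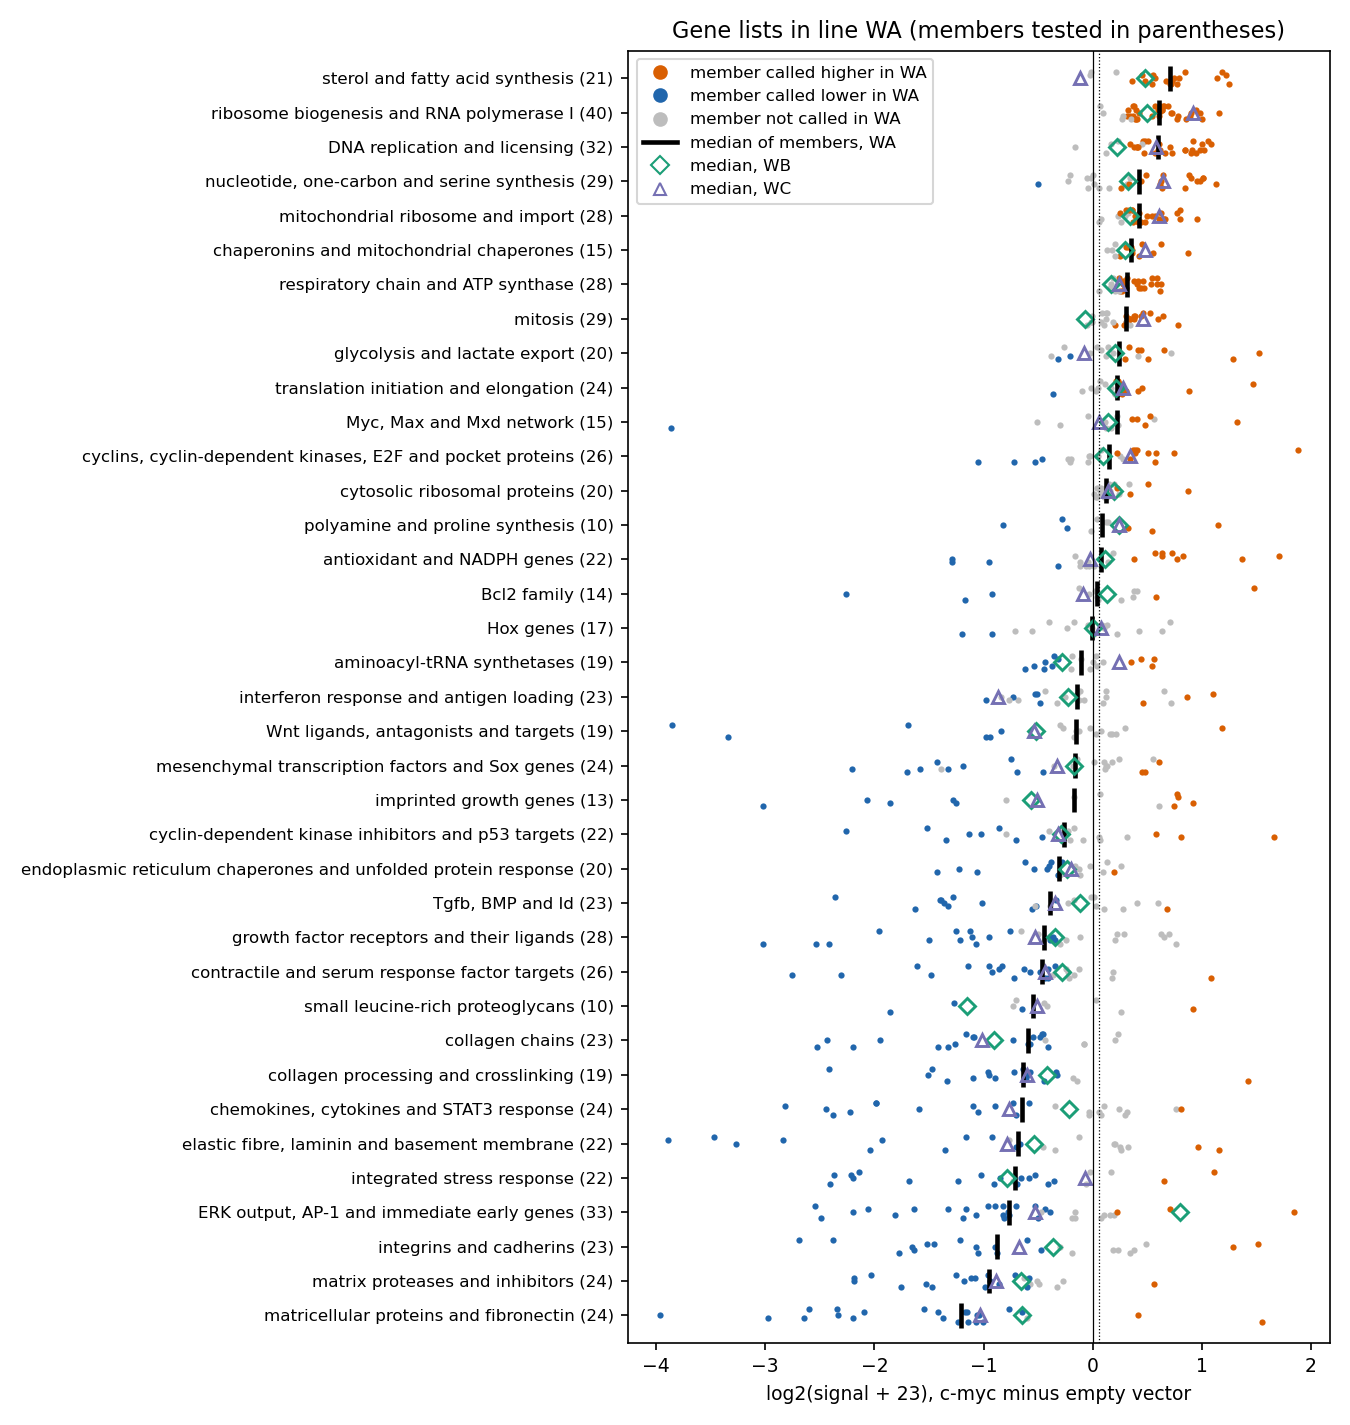
Each dot is 1 tested member of a gene list, placed by its difference in log2(signal + 23) in WA, c-myc minus empty vector. The black bar is the list's median in WA, the diamond that in WB and the triangle that in WC, the dotted line is the median of all genes (0.06), and lists run from the highest WA median (0.71) to the lowest (-1.20).

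Of 24 matrix proteases and inhibitors 17 fell and 1 rose. Timp1, an inhibitor of matrix metalloproteinases, went from 10625, 10973 and 10410 to 2281, 2211 and 2475 (-2.19, SE 0.11, adjusted p = 6.57e-13), and Mmp19 fell by the same amount (-2.19, SE 0.32). The rise was of Adamts1, a protease that cleaves proteoglycans (0.56, SE 0.16), whose WA groups overlapped and whose call was lost without single arrays. Integrins and cadherins gave 14 falls and 2 rises among 23. Itga6, a laminin receptor chain, fell 6.44-fold from 3108, 2732 and 1950 to 404, 353 and 374 (-2.69, SE 0.20), and Itga3, another such chain, rose from 285, 257 and 345 to 853, 621 and 792 (1.29, SE 0.19). Contractile and serum response factor targets gave 17 falls and 1 rise among 26. Actg2, an actin of smooth muscle, fell 4.96-fold (-2.31, SE 0.18), Lmod1, which nucleates actin, by 2.76, Myl9 by 1.61 and Cnn1 by 1.48, and Mylk, the kinase that activates myosin, rose by 1.09 (SE 0.29).

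Of 28 growth factor receptors and ligands 16 fell and 0 rose. Igf2, a growth factor, went from 1359, 1764 and 798 to 60.6, 166 and 219 (-3.02, SE 0.40, adjusted p = 2.16e-06), with -0.18 on a dimmer second probe set. Hbegf, a ligand of the EGF receptor, fell from 3472, 3593 and 4945 to 1023, 1115 and 880 (-1.96, SE 0.27), and Ereg, another such ligand, by 2.41 (SE 0.19). Tgfb and BMP genes gave 11 falls and 1 rise among 23. Inhba, the activin A subunit, went from 6582, 6397 and 6883 to 955, 1569 and 1356 (-2.36, SE 0.16, adjusted p = 4.49e-11), Tgfb1 fell by 1.63 (SE 0.14, with -0.06 on a second probe set) and Smad7, a feedback inhibitor, by 1.39 (SE 0.17).

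Of 19 Wnt genes 6 fell, 1 rose and 12 were not called, where 18.5% of all genes fell and 19.0% rose. Wnt5a, a ligand outside the beta-catenin route, went from 1330, 1641 and 1453 to 105, 155 and 117 (-3.34, SE 0.14, adjusted p = 5.35e-14), and 2 of its 3 other probe sets gave -3.66 and -3.25 and a dim one -0.19. Dkk2, a Wnt antagonist, went from 528, 474 and 279 to 4.22, 11.5 and 6.00 (-3.86, SE 0.45). Its c-myc signals were all below the added 23, so the size of this fall depends on that constant. Chemokines, cytokines and STAT3 response genes gave 13 falls and 1 rise among 24. Cxcl12, a chemokine of stromal cells, went from 1560, 1400 and 1609 to 212, 182 and 196 (-2.82, SE 0.14, adjusted p = 2.87e-13), Cebpd, a transcription factor, fell by 2.45 (SE 0.18, with -0.77 on a dimmer second probe set) and Lif by 2.38 (SE 0.32). Interferon and antigen loading genes gave 3 rises and 5 falls among 23, near the shares over all genes (19.0% and 18.5%).

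The ERK pathway's output, AP-1 and immediate early genes gave 22 falls and 3 rises among 33, with a median of -0.77. Dusp1, a phosphatase that switches off MAP kinases, had signals of 3297, 2997 and 3612 with empty vector and of 646, 657 and 818 with c-myc (-2.19, SE 0.16, adjusted p = 2.63e-10). Dusp4, an ERK phosphatase of the nucleus, went from 570, 521 and 1241 to 133, 84.5 and 98.5 (-2.55, SE 0.23), and Dusp5, another, from 533, 501 and 669 to 122, 113 and 34.5 (-2.49, SE 0.27). All 3 phosphatase genes were without overlap. Dusp4 was near background in WC in both groups (means 7.62 and 9.53), so little could be lost there. Klf4, an immediate early transcription factor, fell by 2.06 (SE 0.19), while Dusp9, another ERK phosphatase, rose from 116, 128 and 68.6 to 547, 399.8 and 348 (1.84, SE 0.25). Fos (-0.19) and Junb (0.08), the best known AP-1 members of the list and named after their values were seen, were not called.

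For many members the effect in WA differed from that in WB. The list's median was 0.80 in WB, where 22 members rose and 5 fell, and -0.53 in WC, where 2 rose and 17 fell. The WA effect was below the mean of both for 17 of 33 members and above for 0, where 5.32% of all genes were called below. Against single lines, 22 members were below WB (5.88% of all genes) and 6 below WC (4.22%). Dusp5 went opposite ways in WA and WB (-2.49 and 1.73, adjusted p of the difference = 5.79e-08), and it was also below WC, where it changed by -0.96 (adjusted p = 0.0118).

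Among transcription factors of the mesenchyme and Sox genes 9 fell and 3 rose of 24. Runx1 fell from 1076, 1215 and 1828 to 345, 244 and 237 (-2.21, SE 0.18), with -0.29 to -3.29 on its 5 other probe sets, Snai2, a repressor of epithelial genes, by 1.58 (SE 0.18) and the chromatin factor Hmga2 by 1.43 (SE 0.17). Of 17 Hox genes 2 fell and 0 rose, where 18.5% and 19.0% of all genes did, and the list's median was -0.01. Hoxd8 fell by 1.19 (SE 0.14) and Hoxa3 by 0.92, whose 3 other probe sets ranged from -0.34 to 1.00. Imprinted growth genes gave 5 falls and 4 rises among 13, with Igf2 and the noncoding Meg3 (-2.07, SE 0.19) the furthest down. The 10 other probe sets of Meg3 ranged from -3.21 to 0.49. Plagl1, a zinc finger factor, rose from 2118, 2046 and 2026 to 3986, 3316 and 3191 (0.75, SE 0.17).

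The response of WA was tested against that of the other lines, whose arrays it does not share. Of 13018 genes, 1232 differed from the mean of WB and WC (9.46%), with WA above for 539 (4.14%) and below for 693 (5.32%). Of the genes that fell in WA, 582 were below the other lines and 21 above, and of those that rose 361 were above and 13 below. Of the 625 genes down at least 2-fold, 287 were below, and of the 296 up at least 2-fold, 113 were above. The same WA arrays entered both the choice of these genes and the difference, so the counts lean this way in advance. In contrasts added after the data were seen, 1386 genes differed from WB (10.6%) and 1001 from WC (7.69%). WA was above both lines for 185 genes (1.42%) and below both for 273 (2.10%). Without WC c-myc replicate 1, the count against WC was 1558, and in a fit of the 18 arrays without v-src, WA was above both lines for 120 genes. In all 3 lines alike, 873 genes rose and 984 fell.

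Among the genes furthest below the other lines was Htr1b, a serotonin receptor, with signals of 1552, 1776 and 1820 and of 130, 247 and 156 in WA (-3.16, SE 0.23, with -1.49 on a second probe set). Its changes in WB and WC were 0.60 and -0.20, and the difference from their mean was -3.36 (SE 0.27, adjusted p = 2.84e-08). Gzme differed by -3.40 (adjusted p = 5.39e-06), but its group means in WB and WC were at most 30.0, so little could be lost there. Ptgs2, the inducible prostaglandin synthase, went from 4547, 4210 and 4558 to 1108, 805 and 909 in WA (-2.22, SE 0.32), rose by 1.95 in WB and changed by -0.84 in WC. It differed from WB (adjusted p = 9.00e-07), and its difference from WC was not called (-1.38, adjusted p = 0.0606). Lif and Pmaip1 fell in WA and differed from both lines. Itga6, which changed by -0.31 in WB and -0.33 in WC, also differed from both (adjusted p = 4.17e-06 and 9.56e-06).

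Genes with a WA effect above the other lines were of different kinds. Some rose in WA: Crabp2, a carrier of retinoic acid, went from 126, 27.5 and 75.6 to 265, 280.3 and 316 (1.77, SE 0.37) and changed by -0.66 in WB and -1.41 in WC, a difference of 2.81 from their mean (adjusted p = 0.000183). Slc6a15 changed by 0.54 and -0.18 in WB and WC and differed from both (adjusted p = 0.00120 and 7.05e-05). Others were dim in WA from the start and fell in WB and WC. Serpinb1a, a protease inhibitor, had WA signals of 5.72 to 14.8 on all 6 arrays, while its mean was 190 with empty vector and 11.5 with c-myc in WB, and 917 and 47.4 in WC, which gave the largest positive difference (3.26, SE 0.57, adjusted p = 0.000404). C1s1, a complement protease, was likewise at 54.3 to 95.9 in WA and fell by 3.78 in WB and by 2.50 in WC.

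Only 15 genes were called one way in WA and the other way in both WB and WC, 9 of them higher in WA and 6 lower. Ch25h, which makes 25-hydroxycholesterol, went from 965, 1008 and 1209 to 311, 353 and 355 in WA (-1.57, SE 0.12, adjusted p = 7.63e-10) and changed by 1.24 in WB and 0.32 in WC. Lratd2 fell by 1.30 (SE 0.14) and rose in the other lines (0.97 and 0.54). Npr3, a clearance receptor of natriuretic peptides, went from 417, 265 and 413 to 799, 806 and 875 in WA (1.16, SE 0.28) and changed by -1.51 in WB and -0.82 in WC. Rcan2, an inhibitor of calcineurin, rose in WA by 1.04 (SE 0.33) and fell in WB (-1.81) and WC (-2.39), and Ogn, a small proteoglycan, rose by 0.92 (SE 0.28) against -1.24 in both. The WA calls of Rcan2 and Ogn were lost without single WA arrays.

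**Figure D5:**
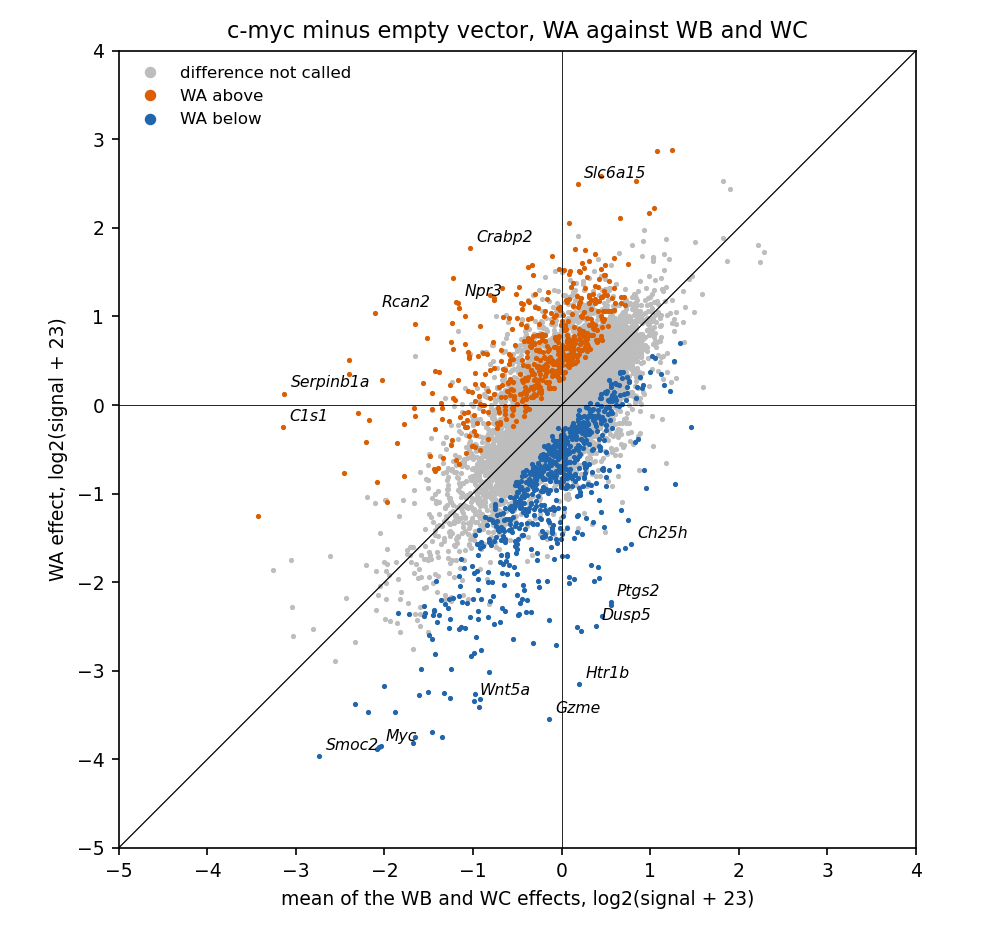
Each point is 1 of 13018 genes. The x axis is the mean of the c-myc effects in WB and WC, the y axis the effect in WA, both as differences in log2(signal + 23), and the diagonal marks equal effects. Coloured points are the 539 genes called above and the 693 called below, with Htr1b and Gzme far below the diagonal and Rcan2 and Crabp2 far above it.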

How the data were processed

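RNA of cells lysed in the dish was hybridised to 26 arrays, per the labels' protocols. The authors deposited an intensity, the linear signal of each of 45101 probe sets, which their processing notes credit to MAS5. The sources used here do not give its version, detection calls or scaling target. The trimmed mean (2% off each end) was 500 on every array. Columns left without a sample numbered 0. The platform annotation named 1 gene for 34945 probe sets, several for 932 and none for 9160, and 64 were controls. The gene IDs of 34741 matched the RefSeq table of GRCm38.p6, which changed 0 symbols. Values were taken as log2(intensity + 23), where 23 is the 20th percentile of all values. Probe sets above the 40th percentile of the mean were kept, and the brightest stood for its gene, which left 13018 of 18193 genes.

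The model was limma 3.58.1 (R 4.3.3, trended prior variance) on all 26 arrays with 9 means of line and vector, 17 residual and 6.2 prior degrees of freedom, and Benjamini-Hochberg adjustment over the 13018 genes at 0.05, two-sided. Nothing in the labels says that replicates were separate cultures, so a p-value weighs only array-to-array spread, possibly technical. The number of arrays limits the precision. The code was tested on simulated data. Members, the 44 gene lists and tests were chosen with earlier results of these data known, and lists are described by counts and medians without a set test. Named genes were taken from the 15 largest rises and 15 largest falls whose groups do not overlap, the 8 largest differences from the mean of WB and WC each way, the 5 largest calls opposite to both lines, up to 4 called members per list and direction, and the Myc network; promoters shown follow the largest rises. Alternatives varied the pseudocount, filter, scaling, probe set rule, variance trend, arrays fitted, replicate block and single arrays. Contrasts against WB alone and WC alone, and leaving out WB and WC arrays, were added after seeing the data.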

Additional observations from a re-analysis of the deposited data

Results flagged for a closer look

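For 48 named genes the effect of c-myc in WA differed from the mean of its effects in WB and WC (limma, adjusted p below 0.05). The count is no separate result, since some were named for this difference and others for a large or opposite WA effect. Values in parentheses are that difference on the log2(signal + 23) scale, WA minus the mean of the other lines.

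WA was below for Gzme (-3.40), Htr1b (-3.36), Ccbe1 (-2.69), Lce1h (-2.40), Pappa (-2.40), Ntn4 (-2.49), Sulf1 (-2.23), Tll1 (-2.15), Fam20a (-2.09), Lama4 (-1.81), Galnt18 (-1.58), Fbln5 (-1.28), Smoc2 (-1.23) and Papss2 (-1.04). It was also below for Dusp5 (-2.88), Lif (-2.84), Pmaip1 (-2.81), Ptgs2 (-2.78), Dusp4 (-2.77), Ch25h (-2.36), Wnt5a (-2.35), Lratd2 (-2.05), Dkk2 (-1.81), Myc (-1.81) and Dusp1 (-1.29). The difference of Dkk2 was lost in 13 of 28 alternative settings, that of Smoc2 in 2 and that of Papss2 when probe sets were averaged (adjusted p = 0.198). Against single lines Dkk2 was called against neither WB (-1.61, adjusted p = 0.116) nor WC (-2.01, adjusted p = 0.0546), Smoc2 was not called against WB (adjusted p = 0.289), and Fam20a (adjusted p = 0.0975), Papss2 (adjusted p = 0.0733) and Ptgs2 (adjusted p = 0.0606) were not called against WC. Gzme was near background in both other lines, and Dusp4 in WC (means 7.62 and 9.53).

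WA was above for the lipid synthesis genes Mvd (0.94), Elovl6 (0.90), Dhcr7 (0.81) and Idi1 (0.77), and for Slc6a15 (2.32), Ifitm1 (2.13), Rsph6a (1.97), Reep6 (1.79), Bex1 (1.68), Spire2 (1.63), Abcc4 (1.45), Dtd1 (1.18) and Dcaf4 (1.18), which all rose in WA. The difference of Rsph6a was lost in 10 settings, that of Dcaf4 in 8 and that of Dtd1 when probe sets were averaged (adjusted p = 0.0544). Against WB alone Dcaf4 (0.41, adjusted p = 0.603), Mvd (adjusted p = 0.182) and Idi1 (adjusted p = 0.0640) were not called, nor against WC alone Rsph6a (adjusted p = 0.149), Spire2 (adjusted p = 0.109) and Reep6 (adjusted p = 0.0704). It was above for Crabp2 (2.81), Rcan2 (3.14), Rgs2 (2.66), Npr3 (2.32) and Ogn (2.16), which rose in WA and changed downward on average in the other lines. For Serpinb1a (3.26), Abi3bp (2.91), C1s1 (2.89), Ifi27l2a (2.74) and Ctsf (2.57) no change was called in WA, and the mean effect in WB and WC was negative. The difference of Ctsf was lost in 3 settings, and its second probe set went the way of a rise in WA, from a mean of 53.5 to 353 (1.94).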

How the results depend on the processing

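Over 17 alternative settings the genes called in WA numbered 4184 to 4932, against 4889. Of 238 named genes called in WA, 194 kept their call in every setting, 44 lost it in at least 1 and 0 reversed; of 112 named differences from WB and WC, 79 kept it in all 28 settings, 33 lost it somewhere and 0 reversed. With the higher pseudocount, 162 genes rose at least 2-fold, against 296, since a larger constant shrinks the change of dim genes. In the 18 arrays without v-src, WA was above both WB and WC for 120 genes, against 185; the cause was not tested. Leaving out each WA array gave 4184 to 4557 called genes, 2052 to 2336 higher, 2132 to 2232 lower, 223 to 395 up and 609 to 654 down at least 2-fold. Leaving out each of 18 arrays of the 3 lines gave 933 to 1562 differences from the mean of WB and WC, 1061 to 1555 from WB and 754 to 1558 from WC, the last without WC c-myc replicate 1; the cause was not tested. WA was then above both lines for 125 to 248 genes and below both for 211 to 315. Deviations of same-numbered WA arrays from their group means had r of 0.07, -0.08 and 0.05. These values cannot show whether such arrays shared a culture or a batch, which the labels do not say. With the replicate block 4833 genes were called in WA and 1208 differed from WB and WC. Signal near background limits what can be said of genes as dim as Gzme in WB and WC or Dusp4 in WC.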
